A study of Capra hircus with 3 samples.

Results

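Surfactant proteins, collectins and complement are linked branches of innate defence, and 10 of their genes could be read on the arrays from Cashmere goat skin. The genes were found by name: every non-control spot whose gene name began with SP- or SFTP, or whose description named a surfactant protein, a collectin, conglutinin, mannose-binding lectin or a complement component or factor. This gave 20 probes on 24 spots, out of 15008 probes for 14363 sequence identifiers on 15208 spots. They were SP-D with 2 probes, 3 other surfactant proteins with 7 probes, and 6 complement genes with 11 probes. SP-D had been placed among the up-regulated genes of the study by its fold change on these same arrays. Its ratio is therefore a description here and carries no p-value.

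The 6 animals compared were female Arbas Cashmere goats aged 2 years. In the short photoperiod group, 3 goats had daylight and pasture only between 9:30 and 16:30, and a shed darkened to about 0.1 lux, 1 °C below the outdoor temperature, held them otherwise. The 3 goats of the natural photoperiod group grazed in daylight of natural length. The sample titles call the second group a long photoperiod, while their descriptions call it natural, and the latter name is used. Total RNA of flank skin, with all the cell types that skin holds, was hybridised to 3 two-colour Agilent sheep arrays, the short photoperiod goat in the red dye Cy5 and a natural photoperiod goat of the same parent in the green dye Cy3. Values are log2 ratios of short over natural photoperiod, so that 1 is a doubling, and each mean is given with its SD over the 3 arrays. No array carried the dyes the other way round, so a bias of a probe towards 1 dye cannot be told apart from the photoperiod.

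Collectins are soluble proteins with a collagen-like stalk and C-type lectin heads that bind sugars on microbes. SP-A and SP-D are the collectins of lung surfactant and are also made by other epithelia, while SP-B and SP-C are small hydrophobic proteins that spread the surfactant lipids. Complement is a cascade of plasma and locally made proteins that meets at C3, whose fragments tag surfaces for the receptors of leukocytes. The only collectins found by name were SP-A and SP-D: no probe was named for conglutinin, mannose-binding lectin or C1q.

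The probes are sheep sequences of 60 bases hybridised with goat RNA. The SP-D probes are shown because they are the only reading of the gene and are not independent of each other. Both come from a partial sheep mRNA record that the array describes as the carbohydrate recognition domain, and they share the 40 bases set in capitals, which are positions 1 to 40 of probe 1 and 21 to 60 of probe 2, over a stretch of 80 bases in all. A probe each of CFB, ITGB2 and ITGAM, the complement members whose gene mean was below 0 on all 3 arrays, follows in lower case. The array files give all of them as unmapped, so that no genome position is stated.
SP-D probe 1: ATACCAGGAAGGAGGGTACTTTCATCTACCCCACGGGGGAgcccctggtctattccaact
SP-D probe 2: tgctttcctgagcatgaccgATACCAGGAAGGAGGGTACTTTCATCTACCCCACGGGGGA
CFB: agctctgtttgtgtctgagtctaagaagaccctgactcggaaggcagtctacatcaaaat
ITGB2 probe 1: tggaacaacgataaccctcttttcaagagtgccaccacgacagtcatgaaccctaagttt
ITGAM probe 2: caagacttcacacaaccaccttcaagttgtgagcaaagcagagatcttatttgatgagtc

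All 20 probes were well above background in both dyes on all 3 arrays, and none of their spots carried an outlier flag. The SP-D probes shared no stretch of 20 bases with a probe of another gene, and neither did any other member. Only the probes of the array were compared. Whether a member probe also matches transcripts of other genes was not tested, and no probe was named for conglutinin. The 2 ITGAM probes also shared 40 bases and the 2 ITGB2 probes 14, so the probes of these genes are partly repeated readings. Between 13872 and 14602 of the 15208 spots were well above background in each dye, and no spot was saturated. The median spot intensity ran from 4587 to 7120 in Cy5 and from 2688 to 3911 in Cy3, lowest on the array of replicate 1, and the SD of all ratios of an array was 0.37 to 0.49.

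SP-D signal was higher in the short photoperiod goat of every pair. The normalised intensity of probe 1 was 2461, 1972 and 2359 in the short photoperiod goats of replicates 1, 2 and 3, and 749.1, 780.5 and 1215 in their natural photoperiod partners. For probe 2 it was 1015, 1436 and 1870 against 340.6, 552.9 and 917. Within each probe all 3 short photoperiod goats lay above all 3 natural photoperiod goats. The same held for 5.60% of all probes measured on 3 arrays, and nothing is read from the SP-D count because SP-D was chosen on this contrast.

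**Figure D1:**
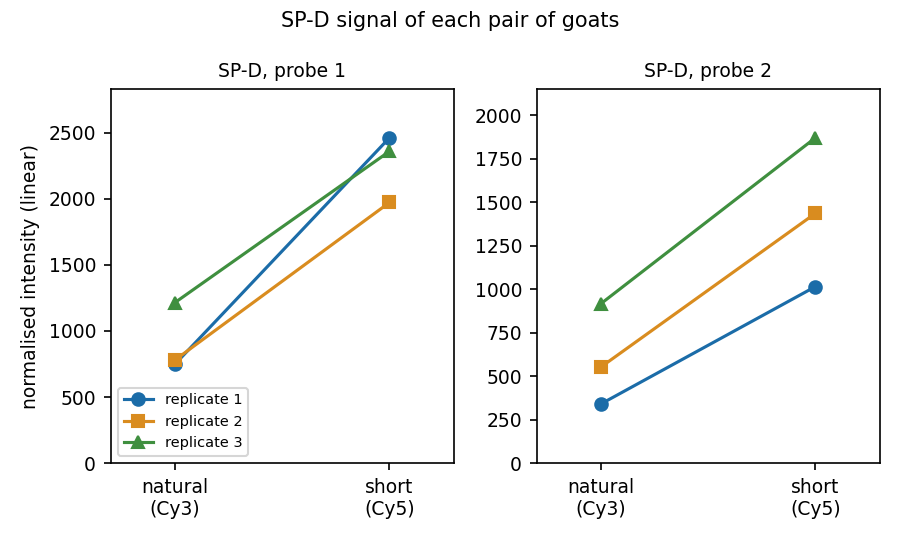
Normalised intensity (linear axis from 0) of the 2 SP-D probes in each natural photoperiod goat (Cy3) and its short photoperiod partner (Cy5); a line joins the 2 goats of 1 array, and the arrays were not scaled to each other. Every line rises, and the short photoperiod goat of replicate 2 has the lowest short photoperiod value of probe 1 but not of probe 2.

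The log2 ratios of probe 1 were 1.72, 1.34 and 0.96, and those of probe 2 were 1.58, 1.38 and 1.03. Averaged over both probes the ratio was 1.33 ± 0.33 (SD, n = 3), a 2.52-fold higher level under the short photoperiod. The 2 probes had means of 1.34 and 1.33, so they differed from each other by far less than the arrays did. In all 3 pairs the gap was positive, and it was widest in replicate 1 and narrowest in replicate 3. Probe 1 stood at percentile 99.8 of the mean ratios of all 14977 tested probes, of which 0.427% had a mean of at least 1. The 2 SP-D probes were the only members past this 2-fold threshold, and the member next below it was probe 2 of SFTPA1 at 0.53.

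**Figure D2:**
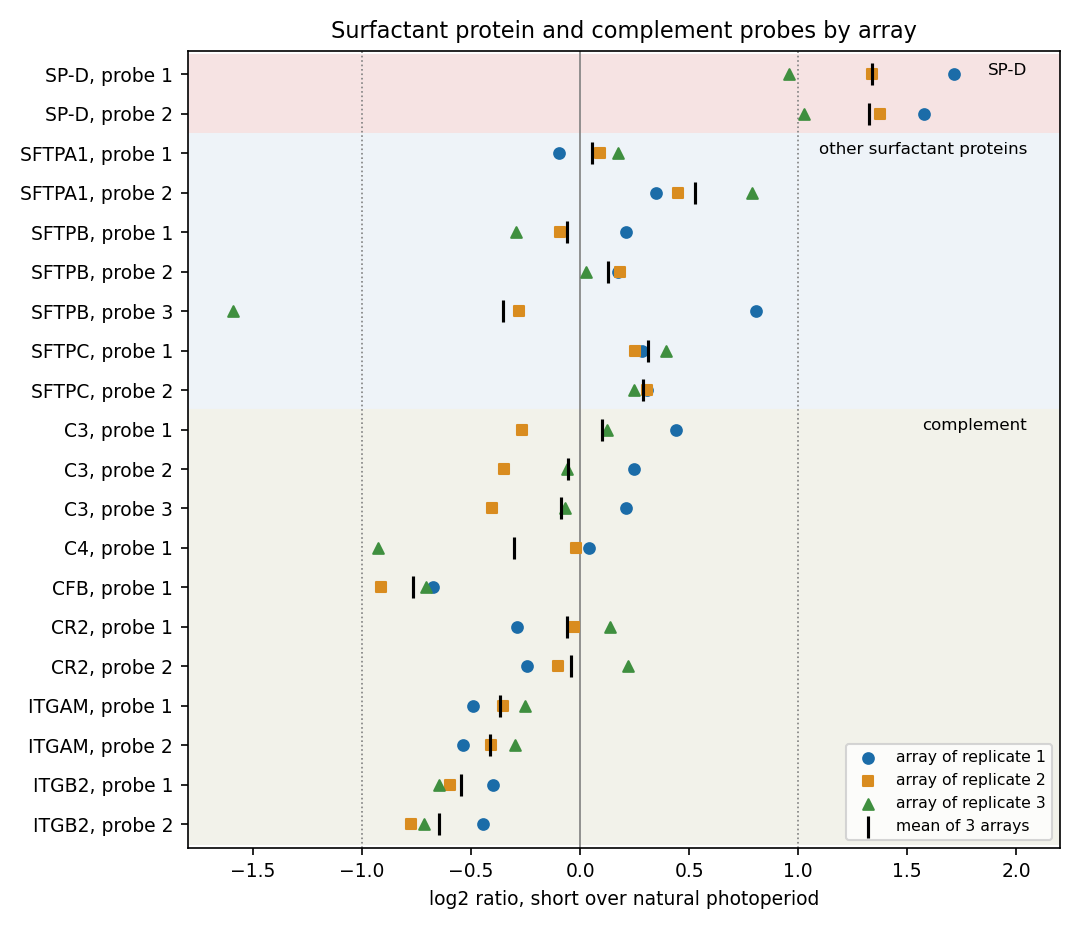
Log2 ratio of short over natural photoperiod for each of the 20 probes on each of the 3 arrays, with the mean as a vertical bar and dotted lines at a 2-fold difference in either direction. SP-D stands alone beyond the dotted line on the right with means of 1.34 and 1.33, while probe 3 of SFTPB has the widest spread.

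The other surfactant proteins were near or slightly above equal levels, and none passed limma's test after Benjamini-Hochberg adjustment over all probes. Among all 14977 tested probes 1 passed, which is 0.00668%. Of the 7 probes, 5 had a mean above 0 and 2 below, with a median of 0.13 beside -0.01 over all tested probes. There were 4 higher on all 3 arrays, against 21.5% of all probes measured on 3 arrays. An unadjusted p under 0.05 in the higher direction was seen for 3, against 9.05% of all probes. In none of the 7 did the short photoperiod goats lie wholly above or below the others. The arrays were not scaled to each other, so overlap between goats of different arrays also depends on the brightness of each array.

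SFTPA1 encodes SP-A, which like SP-D is a collectin. Its probe 1 had ratios of -0.10, 0.09 and 0.18, with a mean of 0.06 ± 0.14 and a limma adjusted p of 0.799. Its probe 2 had ratios of 0.35, 0.45 and 0.79, with a mean of 0.53 ± 0.23 and an adjusted p of 0.183. The probes share no stretch longer than 5 bases, and they disagree: the first spans 0, while the second is above 0 on every array. The intensity of probe 2 was 421.8, 770.2 and 1196 in the short photoperiod goats and 331.9, 564.6 and 692.0 in the natural photoperiod goats, and the groups overlapped. Probe 1 was dimmer, at 176.1, 273.5 and 314.8 against 188.6, 256.7 and 278.7. Whether its low signal bears on the disagreement was not tested. The gene mean of 0.29 ± 0.18 was 0.05 under median centring.

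SFTPC, which encodes the membrane-anchored precursor of SP-C, had the steadiest ratio of the 10 genes. Its array means were 0.30, 0.28 and 0.32, a mean of 0.30 ± 0.02 and a fold of 1.23. Under median centring the gene mean was 0.18. Its 2 probes had means of 0.31 ± 0.07 and 0.29 ± 0.04 with limma adjusted p-values of 0.223 and 0.227. Although each pair showed the same direction, the pairs differed from each other more than their members did: the intensity of probe 1 was 979.0, 839.8 and 1662 under the short photoperiod and 804.4, 705.0 and 1265 under the natural one.

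SFTPB, the gene of SP-B, had probes from 2 sequence records that the array gives this name, and they read differently. Probes 1 and 2, of the same record, had means of -0.06 ± 0.25 and 0.13 ± 0.09, with limma adjusted p-values of 0.828 and 0.522. Probe 3, of the other record, had ratios of 0.81, -0.28 and -1.59 and a mean of -0.35 ± 1.20, with an adjusted p of 0.698. That probe was also by far the brightest of the members, with intensities of 56956, 54521 and 42379 in the short photoperiod goats and 32533, 66137 and 127953 in the natural photoperiod goats. Its direction changed between pairs, and the 3 natural photoperiod goats were further apart than the groups. By comparison, probe 1 read between 541.7 and 1073, and probe 2 between 142.7 and 261.6. Whether probe 3 reads SFTPB mRNA was not tested. Over probes 1 and 2 alone the gene mean was 0.03 ± 0.16. Over all 3 probes it was -0.10 ± 0.51, which may not be a reading of SP-B alone.

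SP-D exceeded each of the other 9 genes on each of the 3 arrays. The difference in log2 ratio was smallest against SFTPC, at 1.03 ± 0.34, and against SFTPA1, at 1.04 ± 0.51, and largest against CFB, at 2.10 ± 0.34. The smallest difference on a single array was 0.51, against SFTPA1 on the array of replicate 3. Because SP-D was chosen for its ratio, these differences are given with no test.

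**Figure D3:**
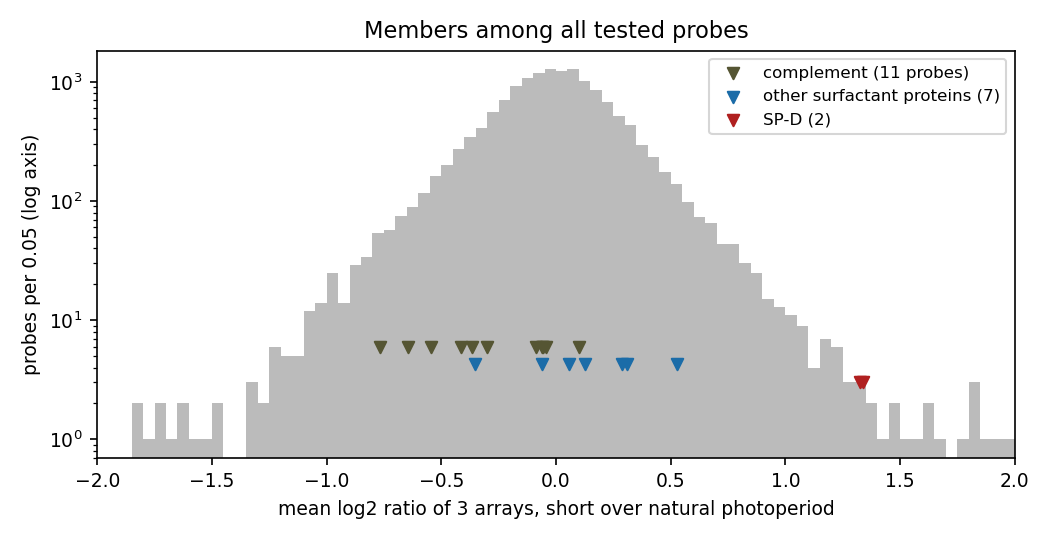
Number of tested probes (log axis) by mean log2 ratio of the 3 arrays in grey, in steps of 0.05, with the members marked as triangles whose height has no meaning; probes beyond -2 and 2 are not drawn. The SP-D triangles lie in the right tail at 1.34 and 1.33, the other surfactant proteins between -0.35 and 0.53, and the complement probes between -0.77 and 0.10.

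The complement probes were mostly below equal levels, led by complement factor B and the leukocyte receptors. Of the 11 probes, 10 had a mean below 0, with a median of -0.30 and a range from -0.77 to 0.10. Of all 14977 tested probes, 7667 had a mean below 0. There were 5 lower on all 3 arrays, against 22.1% of all probes, and 5 had an unadjusted p under 0.05 in the lower direction, against 9.41%. For 4 probes every short photoperiod goat lay below every natural photoperiod goat, against 6.07% of all probes. The probes lower on all 3 arrays, those under this p and those without overlap were all of CFB, ITGAM and ITGB2. They are repeated views of the same genes, and C3 and CR2 had gene means of -0.01 and -0.05. None passed the adjusted threshold, and none was 2-fold lower. The median was -0.14 with median centring in place of loess, -0.17 without replicate 3 and -0.37 without replicate 2. The components C3, C4 and CFB had a median of -0.09 over 5 probes, and the receptors CR2, ITGAM and ITGB2 of -0.39 over 6 probes.

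CFB, the serine protease that forms the alternative pathway C3 convertase, was the lowest member. Its intensity was 6373, 7491 and 8470 in the short photoperiod goats and 10169, 14123 and 13840 in the natural photoperiod goats. The highest short photoperiod value was below the lowest natural photoperiod value. Its ratios were -0.67, -0.91 and -0.71, a mean of -0.77 ± 0.13 and a fold of 0.588, with a limma adjusted p of 0.157. Over the alternative settings that kept this test, its adjusted p ran from 0.0349, under median centring, to 0.409. Median centring called 12.6% of all tested probes and 3 of the 18 member probes other than SP-D.

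C3, the protein on which all complement pathways meet, showed no common direction. Its 3 probes, from 2 sequence records, had means of 0.10 ± 0.35, -0.05 ± 0.30 and -0.09 ± 0.31 with limma adjusted p-values of 0.762, 0.857 and 0.771. The gene mean was 0.30 on the array of replicate 1, -0.34 on that of replicate 2 and 0.00 on that of replicate 3. All 3 probes were above 0 in replicate 1 and below 0 in replicate 2, so the probes kept together while the arrays differed. Under median centring the gene mean turned to 0.21.

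C4, which is cleaved when the classical or lectin pathway is triggered, rested on 1 probe and largely on 1 pair. Its ratios were 0.04, -0.02 and -0.93, a mean of -0.30 ± 0.54 with a limma adjusted p of 0.502. Without replicate 3 the mean was 0.01.

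Complement receptor 3, the integrin with which myeloid cells and natural killer cells bind fragments of C3 on coated surfaces, is built from ITGAM and ITGB2. Both chains were lower in the short photoperiod goat of each pair. ITGB2, the β chain shared by a family of leukocyte integrins, had intensities of 10679, 10301 and 8709 for probe 1 against 14077, 15563 and 13624. For probe 2 they were 14631, 12086 and 11381 against 19916, 20717 and 18688. The groups did not overlap for either probe. Their means were -0.55 ± 0.13 and -0.65 ± 0.18 with limma adjusted p-values of 0.163 and 0.157, and the gene mean of -0.60 ± 0.15 is a fold of 0.661.

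ITGAM, the α chain, had far dimmer probes. Probe 2 read 304.9, 344.0 and 368.5 in the short photoperiod goats and 442.1, 457.3 and 452.7 in the natural photoperiod goats, without overlap. Its ratios were -0.54, -0.41 and -0.30. Probe 1, which covers much of the same stretch, had ratios of -0.49, -0.35 and -0.25. It read 160.0, 216.0 and 397.0 against 224.8, 276.2 and 472.2, and here the groups overlapped. The probe means were -0.37 ± 0.12 and -0.41 ± 0.12 with limma adjusted p-values of 0.202 and 0.187. Median centring took the gene mean from -0.39 to -0.66, and both probes then passed at an adjusted p of 0.0345, as did 12.6% of all probes under that setting.

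CR2, the receptor of B cells and follicular dendritic cells for C3d, had no common direction. Its array means were -0.27, -0.06 and 0.18, a mean of -0.05 ± 0.22. Its probe 1 is printed at 5 places on each array, and the SD over these spots was 0.06, 0.04 and 0.03 on the 3 arrays. The array means lay further apart than these spots of 1 array. Its 2 probes had limma adjusted p-values of 0.809 and 0.875.

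**Figure D4:**
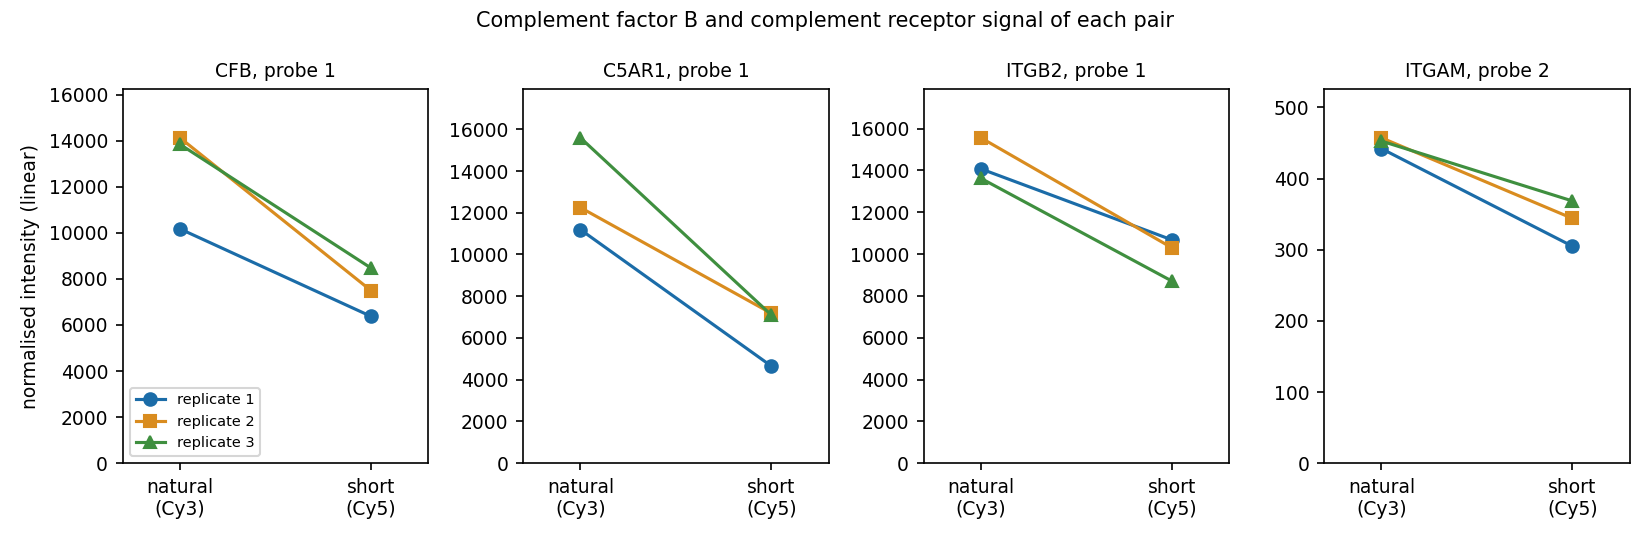
Normalised intensity (linear axis from 0) of CFB, C5AR1, ITGB2 and ITGAM in each natural photoperiod goat (Cy3) and its short photoperiod partner (Cy5), with a line for each of the 3 arrays, which were not scaled to each other. Every line falls, and in each panel the 3 values on the right lie below the 3 on the left, as for 6.07% of all probes measured on 3 arrays. For ITGAM only probe 2 is drawn, and the groups overlapped in its probe 1. The study had listed C5AR1 as down-regulated on these arrays.

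A list of 21 further complement genes and receptors, which also held CR2, ITGAM and ITGB2, added 3 genes. The array names 1 of them C5aR, and its match to C5AR1 was made after its values were seen. C5AR1, the receptor through which the fragment C5a draws and activates neutrophils and macrophages, was 2-fold lower, and the study itself had placed it among its down-regulated genes on these arrays, so that it carries no p-value. Probe 1 read 4647, 7177 and 7093 in the short photoperiod goats and 11192, 12248 and 15591 in the natural photoperiod goats. Probe 2 read 5263, 6625 and 8318 against 12805, 10987 and 17483. The groups did not overlap for either probe, and 6.07% of all probes measured on 3 arrays were below in this way. Nothing is read from this, because C5AR1 was listed by the study on this contrast. The gene mean was -1.04 ± 0.27, a fold of 0.485, lower than that of any member, and 0.427% of all tested probes had a mean of -1 or less. CD59, the membrane inhibitor of the terminal complex, had a mean of -0.09 ± 0.16 and a limma adjusted p of 0.679. CD93, an endothelial and myeloid surface protein once taken for a C1q receptor, had a mean of 0.04 ± 0.12 and an adjusted p of 0.858. Under median centring CD59 turned to 0.54 and CD93 to -0.18. No other gene of the list was found by name.

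Markers of the cell types that skin can hold are given beside these values. In whole skin, fewer cells of a type and less RNA per cell cannot be told apart. Of 12 macrophage and myeloid markers 4 were found, and their 7 probes, of CD14, LYZ, FCER1G and FCGR1A, were all lower on all 3 arrays, with a median of -0.37, a range from -1.09 to -0.31 and array medians of -0.45, -0.19 and -0.53. FCGR1A, at the low end of that range, had been placed by the study among its down-regulated genes on these arrays. Of 9 lymphocyte markers, 3 genes of the T cell receptor complex, CD3D, CD3E and CD3G, were well above background, and their 5 probes were all lower on all 3 arrays, with a median of -0.71 and array medians of -0.45, -0.54 and -0.91. Of all probes measured on 3 arrays 22.1% were lower on each. The order over arrays differed between genes. The myeloid markers were least low in replicate 2, and so was C5AR1, at -1.28, -0.75 and -1.10. CFB was lowest in replicate 2, ITGB2 was at -0.69 and -0.68 in replicates 2 and 3, and ITGAM was least low in replicate 3. Both CD4 probes were not well above background. The part of these cells in the lower CFB, ITGAM, ITGB2 and C5AR1 signal was not tested.

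On the side of SP-D, 3 of 9 keratinocyte markers were found and 2 of these, TP63 and KRT14, had tested values. They were higher on all 3 arrays in all 3 probes, with a median of 0.91 and array medians of 1.32, 1.12 and 0.26. KRT14 alone had a mean of 0.65 ± 0.57, with 0.09 in replicate 3. Of all probes 21.5% were higher on each array, and TP63, with 2 of these 3 probes, is in the study's list of up-regulated genes from these arrays. The KRT5 probe had no tested value. Like SP-D, TP63 and KRT14 were highest on the array of replicate 1 and lowest on that of replicate 3, and their part in the SP-D ratio was not tested. None of 9 lung epithelium markers was found by name, and the surfactant genes SFTPA1, SFTPB and SFTPC were the only other genes of surfactant-making cells set beside SP-D. Of the liver genes, which mark the main source of plasma complement, both ALB probes were not well above background. The 6 probes of the liver genes TTR, TF, SERPINA1 and AHSG that were had a median of -0.33, 5 of them below 0 and 1 lower on all 3 arrays. The 7 fibroblast marker probes had a median of -0.24, with 2 lower on all 3 arrays of the 5 that had all arrays, and no endothelial marker was found. None of these marker probes passed the adjusted threshold.

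**Figure D5:**
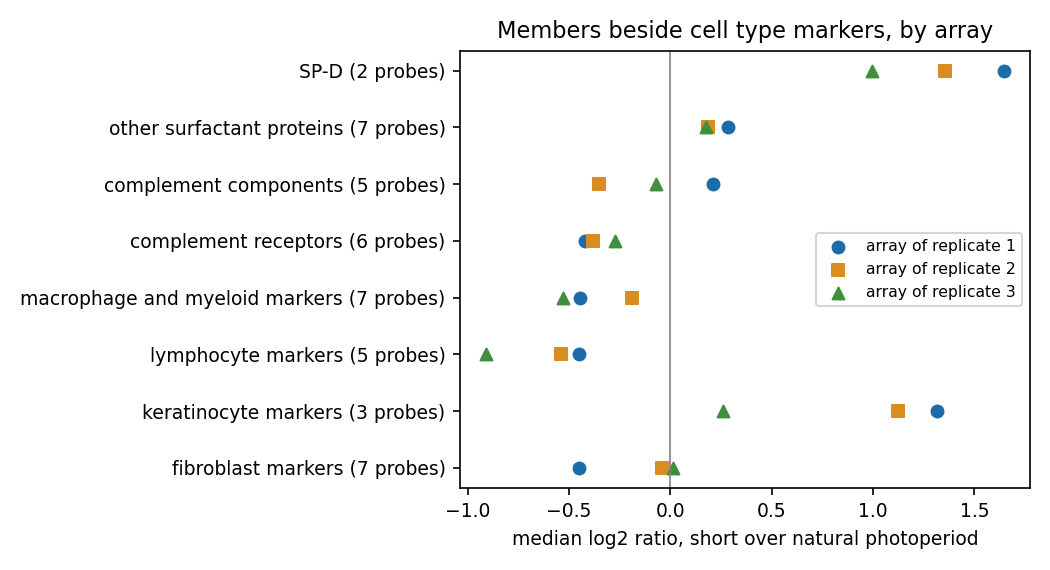
Median log2 ratio of short over natural photoperiod on each of the 3 arrays for the groups of members and for cell type markers, with the number of probes behind each median. The medians of the receptors and of both leukocyte lists lie left of 0 on every array, and those of SP-D and the keratinocyte markers lie right of it. Among the receptors, CR2 had a gene mean of 0.18 in replicate 3.

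The patterns nearest to that of SP-D, itself chosen for its ratio, were sought among 1179 named probes by the root mean square of the differences over the 3 ratios. CYP17A1, a steroid hydroxylase, was nearest at 0.36, with ratios of 1.82, 0.82 and 0.72. MLN, the gut hormone motilin, followed at 0.40, with ratios of 1.23, 1.89 and 1.13. The 2 probes of TP63, the p63 transcription factor of basal epithelial cells, came at 0.40 and 0.48, and the amino acid transporter subunit LAT2 at 0.50. All 4 genes were, like SP-D, in the study's list of up-regulated genes from these arrays, so the likeness is not independent of that choice. That list names LAT2 as a linker for activation of T cells, while the array describes the same record as the transporter subunit. Of these 5 probes, those of TP63 and CYP17A1 shared with SP-D the order of highest in replicate 1 and lowest in replicate 3.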

How the data were processed

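Skin of 3 short photoperiod and 3 natural photoperiod goats was read on 3 two-colour arrays of 1 slide. The deposited scanner files hold spot and local background intensity in Cy5 and Cy3, which the authors extracted with Feature Extraction 10.7.3.1 and which are not normalised. The authors also deposited a log10 ratio of processed signals, which Feature Extraction background-subtracted and dye-normalised. The authors' value table holds log2 ratios of Cy5 over Cy3 that matched those processed signals to within 0.001 for 99.96% to 100% of 14958 probes with 1 spot. Its column medians were 0.01, 0.00 and 0.02.

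Ratios were computed in R 4.3.3 with limma 3.58.1: normexp on all spots with an offset of 50, removal of control spots, loess within each array, removal of spots with any of 4 outlier flags and averaging of the spots of a probe. Probes with at least 2 arrays were tested against 0 with lmFit and eBayes, which is a paired test because each array holds 1 goat of each group, with Benjamini-Hochberg adjustment over 14977 probes at 0.05. The pairing of goats of the same parent comes from the study's text. A gene is the mean of its probes. Intensities per goat are the normalised values of each dye and were not scaled between arrays. The 2-fold rule and lowess follow the study's methods. The number of arrays, 3, limits the precision.

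The members and lists were chosen with earlier results of these data known. Named were all surfactant and collectin probes, the complement probes by the rule (all C3 and the 5 highest and 5 lowest, which covers all 11), other listed complement genes that were measured, and the 5 probes nearest to SP-D. Of the array identifiers, 0 matched a table of goat genes, so names are those of the array. Alternatives changed the background correction, normalisation, filters, test and arrays used.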

Additional observations from a re-analysis of the deposited data

How the results depend on the processing

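The mean of SP-D stayed positive under all 10 alternatives for it, from 1.17 without replicate 1 to 1.50 without replicate 3, with 1.21 under median centring and 1.47 from Feature Extraction's own log ratio. The count of called probes, 1 under loess, depended on the processing: it was 1885 with median centring (1013 of them higher), 156 with separate channels and their correlation within spots, 14 with the authors' value table, and 0 with Feature Extraction's own log ratio, with eBayes set to trend and robust, and with the channels as unpaired samples without a replicate block. Leaving out an array gave 0 to 0 calls. Members other than SP-D had 0 calls, but 3 with median centring (CFB and both ITGAM probes) and 1 with separate channels (CFB). The median of the complement probes was -0.14 with median centring, and -0.37 to -0.17 when an array was left out. The separate channels used probes with values on all 3 arrays. Of 120 gene means under alternatives, 110 moved by less than the SD over arrays and 10 by more; 11 changed sign, for C3, C4, SFTPB, CR2, CD59 and CD93, which all had means within 1 SD of 0. The means of CFB, ITGAM, ITGB2, C5AR1, SFTPA1 and SFTPC kept their sign under every alternative, though SFTPA1 came down to 0.05 and SFTPC to 0.18 with median centring. The cause of these differences was not tested. All members were well above background. The bright CD59 and C3 went up under median centring, to 0.54 and 0.21, while the dimmer ITGAM, SFTPA1 and CD93 went down, to -0.66, 0.05 and -0.18, and ITGAM was also at -0.61 with Feature Extraction's own log ratio.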

Other observations

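Lectins outside the collectin family, chosen after their values were seen, lay on the other side of 0 from SP-D. The array names 6 further genes of C-type lectins and selectins, which carry the same kind of sugar-binding domain, and their 10 probes all had a mean below 0, with a median of -0.85 and a range from -1.08 to -0.46. Of these, 8 were lower on all 3 arrays, against 22.1% of all probes measured on 3 arrays. A mean below 0 was seen for 7667 of all 14977 tested probes. Both CLEC6A probes were above 0 in replicate 2, at 0.45 and 0.01. Because the lectins and selectins were picked with their values in view, no test is given. SELE, the selectin with which activated endothelium catches leukocytes, had means of -1.03 ± 0.23 and -0.66 ± 0.35 in its 2 probes, and SELP, found on platelets and endothelium, of -0.46 and -0.47. CLEC7A, the receptor of myeloid cells for fungal glucans, had ratios of -0.59, -0.72 and -1.04. CLEC4E, the myeloid receptor Mincle, had means of -0.96 ± 0.80 and -0.93 ± 0.83, with the pair of replicate 3 near 0. The study had placed SELE among its down-regulated genes on these arrays.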
